A study of Mus musculus with 12 samples.

Results

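Cytosolic ribosomal protein transcripts were examined in a small RNA sequencing series from livers of male C57BL/6 mice (titled WT). Rows of the deposited gene table were taken where the gene name is Rpl, Rps or Rplp followed by a digit, or Rpsa, and no pseudogene. The rule found 19 of 3717 rows. Of these, 18 encode ribosomal proteins, 13 of the large and 5 of the small subunit, and 1 (Rps6kb1) encodes S6 kinase, an enzyme that phosphorylates a ribosomal protein. The mice were fed chow or a diet labelled HFCF, which the labels do not spell out, for 1 month (age 3 months) or 3 months (age 6 months). There were 3 libraries, given as biological replicates, in each of 4 groups. Age and time on the diet moved together and cannot be told apart. The series concerns liver RNA in a model of nonalcoholic steatohepatitis, in which fatty liver is accompanied by inflammation.

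Ribosomal proteins form the 2 ribosomal subunits together with ribosomal RNA. Their genes are also hosts: many carry small nucleolar RNAs (snoRNAs) in their introns, which are released when the intron is removed and trimmed. The C/D box snoRNAs guide methylation of the ribose in ribosomal RNA, and the H/ACA box snoRNAs guide conversion of uridine to pseudouridine. A ribosomal protein messenger RNA is cut off from the snoRNA once splicing is done, so the level of one need not follow that of the other. The snoRNAs of Rpl13a have been linked to the response of cultured cells to excess lipid.

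The rows named after ribosomal protein genes held almost no reads of their own. Of the 567617 counts in the 18 rows over 12 libraries, 97.6% were matched by the counts of snoRNA rows that lie within the same genes. The sequences of 10 snoRNAs within these genes are shown. Except for Snord35a and SNORD24, which their host rows leave out, they name the RNA behind the counts. In C/D box snoRNAs the capitals mark TGATGA (the usual C box) within 25 bases of the 5′ end and the last CTGA (the usual D box) within 20 bases of the 3′ end. In H/ACA box snoRNAs they mark the last ACA within 10 bases of the 3′ end. Sequences run 5′ to 3′ on the strand of the snoRNA and come from GENCODE M21 (GRCm38, the assembly also called mm10); T stands for U.
Snord21 in Rpl5, chr5:107904555-107904648, + strand: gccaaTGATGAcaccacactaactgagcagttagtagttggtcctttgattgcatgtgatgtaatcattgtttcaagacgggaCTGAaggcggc
Snord32a in Rpl13a, chr7:45127382-45127464, − strand: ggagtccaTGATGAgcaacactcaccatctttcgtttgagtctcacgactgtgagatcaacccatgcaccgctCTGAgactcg
Snord33 in Rpl13a, chr7:45126864-45126947, − strand: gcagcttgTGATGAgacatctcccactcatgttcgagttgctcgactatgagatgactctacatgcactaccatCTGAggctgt
Snord34 in Rpl13a, chr7:45126601-45126670, − strand: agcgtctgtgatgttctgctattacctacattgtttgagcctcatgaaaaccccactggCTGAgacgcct
Snord35a in Rpl13a, chr7:45126346-45126435, − strand: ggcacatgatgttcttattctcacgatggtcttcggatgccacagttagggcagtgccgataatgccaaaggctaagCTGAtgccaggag
Snord15b in Rps3, chr7:99479563-99479707, − strand: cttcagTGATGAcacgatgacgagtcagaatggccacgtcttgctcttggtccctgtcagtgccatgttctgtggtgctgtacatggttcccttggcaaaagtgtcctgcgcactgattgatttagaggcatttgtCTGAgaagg
Snord68 in Rpl13, chr8:123103038-123103123, + strand: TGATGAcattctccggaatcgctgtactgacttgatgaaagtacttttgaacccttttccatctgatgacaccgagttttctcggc
SNORD24 in Rpl7a, chr2:26911261-26911334, + strand: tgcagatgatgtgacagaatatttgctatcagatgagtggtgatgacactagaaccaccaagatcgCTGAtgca
Snora64 in Rps2, chr17:24720772-24720905, + strand: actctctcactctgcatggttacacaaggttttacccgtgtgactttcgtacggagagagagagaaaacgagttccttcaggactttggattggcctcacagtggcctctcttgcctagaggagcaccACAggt
Snora65 in Rpl12, chr2:32963291-32963420, + strand: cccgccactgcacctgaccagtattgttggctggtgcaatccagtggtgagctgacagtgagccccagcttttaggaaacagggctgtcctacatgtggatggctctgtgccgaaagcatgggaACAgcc
Both C/D box motifs were found in Snord21, Snord32a, Snord33 and Snord15b. TGATGA was not found in that window of Snord34, Snord35a and SNORD24, nor CTGA in that of Snord68. Among the 124 C/D-named rows of the table with a sequence, 81 (65.3%) held both motifs, and 88 of 95 H/ACA-named rows (92.6%) held ACA. The search used the RNA strand only.

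Of the 18 rows, 16 span at least 1 snoRNA row, 36 snoRNA rows in all. In 14 of them the sum of 19 snoRNA rows accounted for at least 80% of the ribosomal protein count over the 12 libraries. The match was nearly exact for the rows with the most reads. Rpl5, a protein that binds 5S ribosomal RNA, had 178154 counts, of which 25 were not in Snord21. Rpl13a had 44 of 84923 counts outside Snord32a, Snord33 and Snord34. Rpl13 had 12 of 76566 outside Snord68, and Rps3, which sits at the entry site of messenger RNA, had 85 of 79220 outside Snord15b. Rpl7a had 44 of 67805 outside its 3 SNORD36 rows. In these 5 rows the share matched by snoRNA rows ran from 99.9% (Rps3) to 99.99% (Rpl5), and in single libraries it was no less than 99.8%.

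**Figure D1:**
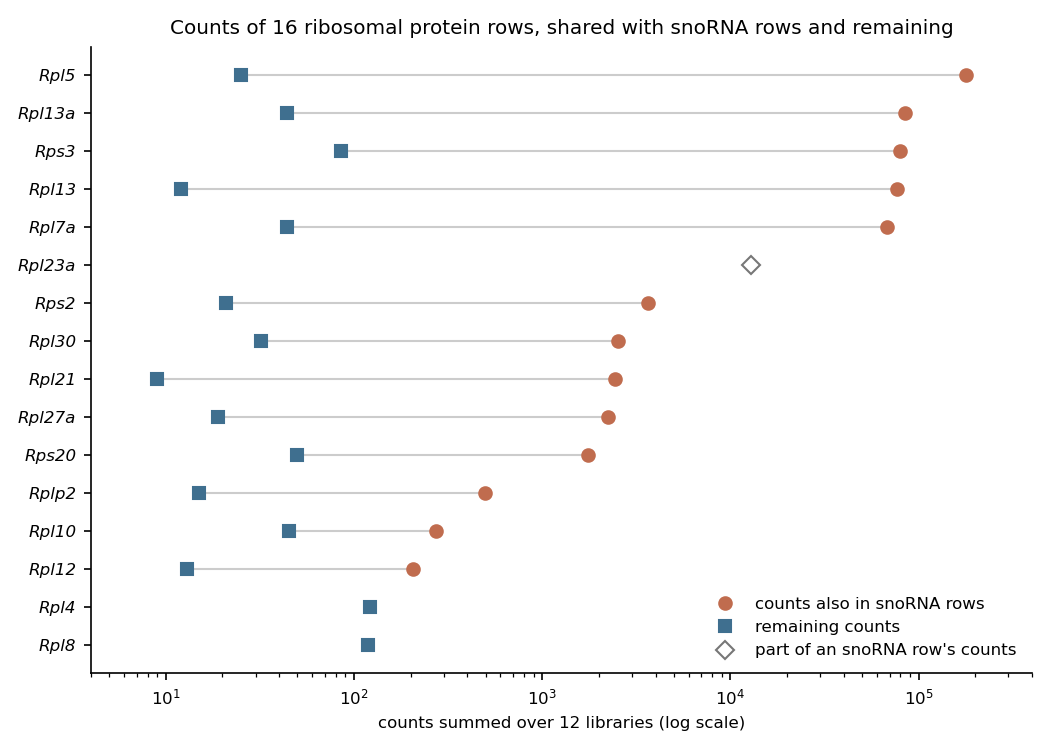
Counts of 16 ribosomal protein rows summed over 12 libraries, on a logarithmic axis. Circles are counts that are also in snoRNA rows of the same gene and squares are the remaining counts. The diamond is Rpl23a, where reads of the messenger RNA and of Snord42b cannot be separated. The legend's wording for it, a part of an snoRNA row's counts, is not settled. The circles lie above the squares in all 13 rows plotted that have both, by the widest gap in Rpl5 and the narrowest in Rpl10; Rpl4 and Rpl8 have squares only.

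Whether an snoRNA entered a row mostly went with its position in the gene model. Of the 19 snoRNA rows found in the counts of their host, 17 lay wholly within an exon of GENCODE M21. The other 2, Snord34 and Snord32a, lay outside the M21 exons of Rpl13a, whose deposited row is 3316 bases long against 2114 exonic bases in M21. Of the 17 snoRNA rows not called counted in their host, 14 had no exonic base. The other 3 were Snord42b of Rpl23a (22 of 69 bases exonic) and, in Rpl4, Snord16a (all 99) and a SNORD18 copy (59 of 71). The deposited row of Rpl4 is 1422 bases long against 2007 exonic bases in M21. The row length equalled the M21 exon length in 13 of the 18 rows. Thus Rpl13a took in 3 of its 4 snoRNAs and left out Snord35a, and Rpl7a took in its SNORD36 rows but left out SNORD24. Rpl4, a large subunit protein, left out 5 snoRNA rows whose mean counts ran from 88.3 (SNORD16) to 4076 (a SNORD18 copy), and its own row held 2 to 31 counts per library. Several of these snoRNAs share a name with another row (SNORD36, SNORD18 and SNORA66). How alike the copies are was not examined, so their counts may be uncertain as to copy.

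**Figure D2:**
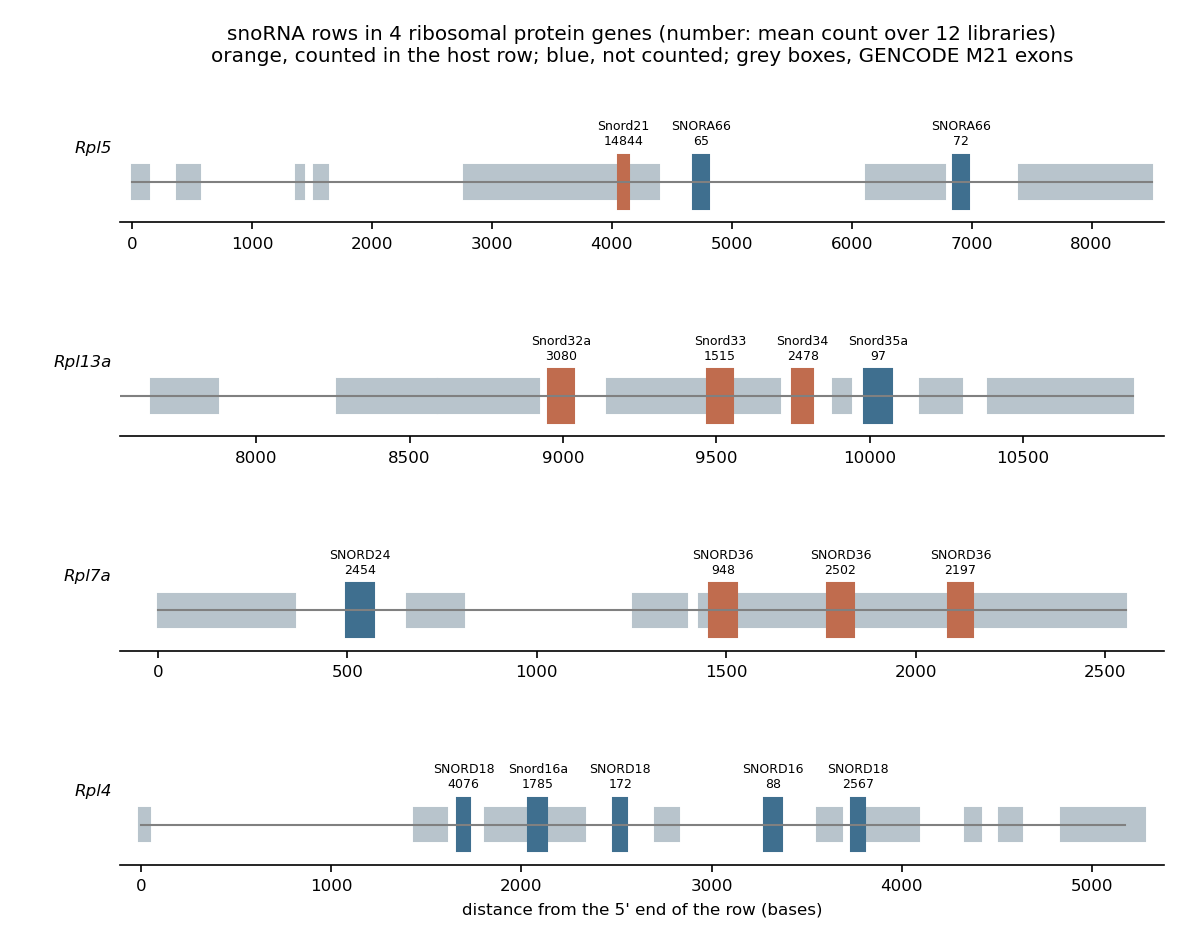
Maps of 4 ribosomal protein genes, drawn in the direction of transcription with distance in bases from the 5′ end of the row; the Rpl13a map starts at its first M21 exon. Grey boxes are GENCODE M21 exons and the number at each snoRNA is its mean count over 12 libraries. The snoRNAs counted in the host (orange) lie inside grey boxes except Snord32a and Snord34 of Rpl13a. All 5 snoRNAs of Rpl4 are left out (blue), although Snord16a lies inside a grey box and a SNORD18 copy lies partly inside another.

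The authors' FPKM values, which divide counts by row length, differed between host and snoRNA although the reads were the same. Rpl5 had a mean FPKM of 882 over a row of 3920 bases, and Snord21 had 36791 over 94 bases. The FPKM of such a row is therefore the level of an snoRNA spread over the exons of its host. For that reason no ranking of ribosomal protein levels was made.

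C/D box snoRNAs stood behind 8 rows (among them Rpl5, Rpl13a, Rps3, Rpl13, Rpl7a, Rpl21 and Rps20), and their snoRNA rows held 544556 counts. H/ACA box snoRNAs stood behind 6 rows (Rps2, Rpl30, Rpl27a, Rplp2, Rpl10 and Rpl12), with 9415 counts in the snoRNA rows. In the second group the share from snoRNA rows was 99.4% in Rps2 (Snora64), 99.2% in Rpl27a (Snora3), 98.8% in Rpl30 (SNORA72), 97.1% in Rplp2 (Snora52), 94.1% in Rpl12 (Snora65) and 85.9% in Rpl10 (Snora70). In the C/D group the share was 99.6% in Rpl21 (SNORD102) and 97.2% in Rps20 (snoU54). Rplp2 encodes a protein of the acidic stalk of the large subunit, and it was the only stalk protein with a row.

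Rpl23a differed from the other rows. Only 22 of the 69 bases of Snord42b are exonic there, and the count of Rpl23a was 75.3% to 84.0% of that of Snord42b in every library. Reads of the messenger RNA and of Snord42b cannot be separated in this row. Next to it, the row Tlcd1 on the + strand had 1863 to 3524 counts, of which 99.3% to 99.8% equalled the sum of Snord4a and Snord42a, snoRNAs of Rpl23a on the − strand. At this locus the counting therefore did not use strand.

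Reads that no snoRNA row shared were found in 3 rows, Rpl8 and Rpl4 among them. Rpl8, a protein at the core of the large subunit, had 14, 10 and 13 counts in chow and 5, 7 and 11 in HFCF at 1 month, and 4, 10 and 16 against 7, 13 and 9 at 3 months. Rpl4 had 31, 7 and 10 against 8, 5 and 22, and then 2, 8 and 6 against 4, 6 and 13. The values overlapped between groups on the count scale, and the highest value of Rpl4 came from chow replicate 1 at 1 month. Adding what was left in the 14 shared rows gave 30 to 106 counts per library over the ribosomal protein rows other than Rpl23a. The libraries held 2539388 to 5255906 counts. Genes with no row are not in this sum, and what RNA the counts left in the shared rows came from was not tested. The diet effects of Rpl4 and Rpl8 had standard errors of 0.41 to 0.58 on the log2 scale, so small changes of these messenger RNAs were not detectable at this depth. Rps6kb1 had 2 to 10 counts, overlaps another gene and did not pass the filter on low counts.

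GENCODE M21 lists 84 protein-coding ribosomal protein genes whose names match the rule. Of these, 66 have no row and are not analysed here. They include Rplp0, Rplp1, Rpsa and the paralogues Rpl3l, Rpl10l, Rpl22l1, Rpl39l and Rps27l. Every row of the table reached at least 10 counts in 1 library. Genes with a row more often held snoRNA rows: 16 of 18, against 14 of the 66 without. In 14 of these 18 rows, snoRNA rows matched at least 80% of the counts. The contrast is therefore not independent of the 10 counts that every row reached. The largest snoRNA counts in a gene with no row were those of the 3 SNORD58 rows of Rpl17, at a mean sum of 8323 counts per library.

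The libraries were compared with edgeR's quasi-likelihood test over all 2511 rows that passed the filter on low counts, with p-values adjusted over all of them by the Benjamini-Hochberg method. Levels below are CPM scaled by TMM. The scaling factor was 1.44 in chow replicate 2 at 1 month and 0.788 to 1.18 in the other libraries, so this library stood apart. Hepatocyte markers were all present, with a summed level of 1179 to 2493 CPM, against 0.67 to 22.6 CPM for each list of other liver or blood cell types and no row for exocrine pancreas. In bulk tissue fewer cells of a type and less RNA per cell cannot be told apart. Since 14 rows hold mostly snoRNA reads, the comparisons below are in the main comparisons of those snoRNAs, and the row names are kept as labels. The share was lowest in single libraries of Rpl10 (76.5%) and Rpl12 (66.7%), and at 3 months Rpl12 was at -0.60 where Snora65 was at -0.75.

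Summed over the 18 rows, the ribosomal protein rows took 1.28% ± 0.317 (SD, n = 3) of the table in chow and 1.07% ± 0.162 in HFCF at 1 month. The shares were 1.16% ± 0.0781 and 0.953% ± 0.196 at 3 months. The ranges of the diets overlapped at 1 month (0.978% to 1.61% in chow, 0.951% to 1.25% in HFCF) and just overlapped at 3 months (lowest 1.104% in chow, highest 1.107% in HFCF). No test was made of these sums.

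After 1 month on the diets, no ribosomal protein row passed the test between HFCF and chow. None of 18 was called at an adjusted p under 0.05, against 0.438% of all rows tested, and 2 had an unadjusted p under 0.05 (10.1% of all rows). The direction was split, with 9 rows negative (53.4% of all rows) and 9 positive, and the median log2 fold change was -0.02 against -0.03 over all rows. The 2 rows of smallest p, Rpl10 and Rpl12, both carry H/ACA snoRNAs. Rpl10, a late-joining protein of the large subunit, had 3.45, 11.8 and 7.60 CPM in chow and 3.77, 3.62 and 5.03 CPM in HFCF. The groups overlapped, and the log2 fold change was -0.83 ± 0.34 (SE, edgeR adjusted p = 0.390). Rpl12, a protein at the base of the stalk, had 3.95, 8.64 and 3.80 CPM in chow and 3.01, 3.14 and 3.35 CPM in HFCF. All HFCF values lay below all chow values, but with 1 chow library far above the rest, and the log2 fold change was -0.76 ± 0.34 (edgeR adjusted p = 0.431). That library was the one that stood apart: without it the values were -0.33 ± 0.35 for Rpl10 and -0.26 ± 0.36 for Rpl12. Without chow replicate 1 instead, Rpl10 passed, at -1.20 ± 0.30 (edgeR adjusted p = 0.0471).

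The other rows of small p at 1 month were Rpl30 and Rpl21, at -0.57 ± 0.33 and -0.43 ± 0.29, and Rpl8, with no snoRNA reads, at -0.57 ± 0.41. Rpl30 was at 0.056 without chow replicate 2 and Rpl21 at 0.077 without chow replicate 3, so the direction of each rested on 1 library. Rpl8 and Rpl12 were the 2 rows whose groups did not overlap, both lower in HFCF, where 5.62% of all rows were lower without overlap. The most counted rows showed small differences. Rpl5 had 2782, 3063 and 3629 CPM in chow and 4039, 4203 and 3273 CPM in HFCF, with overlap and a log2 fold change of 0.28 ± 0.21. Rpl13a, which holds Snord32a, Snord33 and Snord34, was at 0.04 ± 0.22. Under library totals without TMM the median of all rows moved to -0.36 and that of the 18 rows to -0.37, so these directions hold only relative to the bulk of rows.

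**Figure D3:**
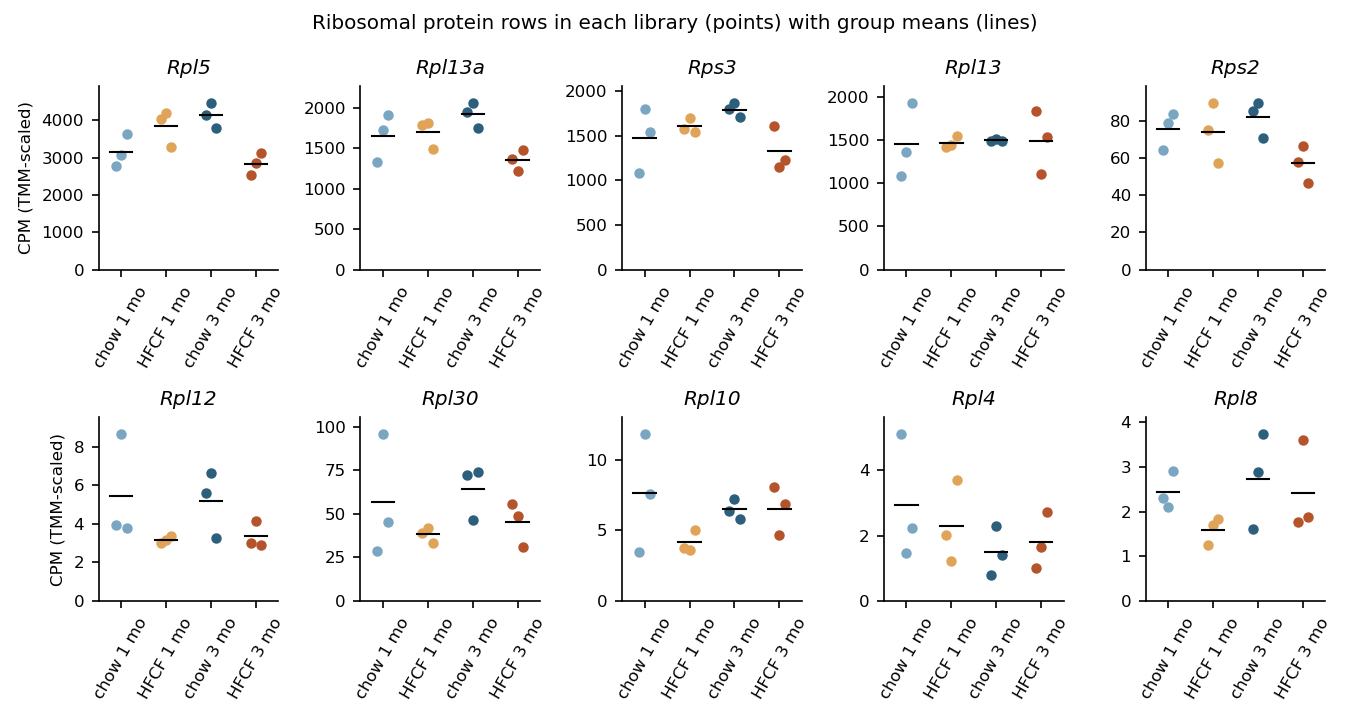
TMM-scaled CPM of 10 ribosomal protein rows in each library; points are libraries (replicates 1 to 3 from left to right) and lines are means of 3. The first 8 panels are rows that hold mostly snoRNA reads and the last 2 (Rpl4 and Rpl8) share none; chow replicate 2 at 1 month is the high point in Rpl12, Rpl30 and Rpl10, and Rpl5 and Rpl13a are lower in HFCF than in chow at 3 months with no overlap.

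After 3 months, the ribosomal protein rows were mostly lower in HFCF by small amounts, and none passed the test. None of 18 was called, against 2.59% of all rows tested, and 3 had an unadjusted p under 0.05 (14.5% of all rows). Of the 18, 15 had a negative log2 fold change, against 47% of all rows, with a median of -0.30 against 0.04. Without HFCF replicate 1 at 3 months 17 were negative, with a median of -0.49. With the scaling of the miRNA rows all 18 were, with a median of -0.53 against -0.20 over all rows. Some other settings gave fewer negative rows, a smaller median change or both. Under library totals 14 were negative, with a median of -0.21 against 0.13 over all rows. Without HFCF replicate 2 at 3 months 14 were negative (median -0.31), and without HFCF replicate 3 17 were (median -0.24). In 6 rows (Rpl5, Rpl13a, Rps3, Rps2 and Rpl27a among them) every HFCF library lay below every chow library, and in none above; 11% of all rows were lower in that way, as were 20.9% of all snoRNA rows tested and 18.1% of those outside ribosomal protein rows. Rows of the same table share libraries and scaling, so they are not independent. The summed hepatocyte markers were also lower, at 1179 to 1275 CPM in HFCF and 1330 to 1508 CPM in chow. Singly, 7 of the 11 markers tested were negative, with a median of -0.12, and 2 passed as lower. The part of these markers in the result was not tested.

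Rpl5, that is Snord21, had 4137, 4470 and 3779 CPM in chow and 2519, 2867 and 3116 CPM in HFCF at 3 months. The groups were separate, with a log2 fold change of -0.54 ± 0.22 (edgeR adjusted p = 0.223). Rpl13a had 1949, 2065 and 1748 CPM in chow and 1367, 1224 and 1477 CPM in HFCF, again separate, at -0.50 ± 0.22 (edgeR adjusted p = 0.265). Rps2, with Snora64, had 85.6, 90.1 and 70.9 CPM against 58.2, 66.9 and 46.9 CPM, at -0.52 ± 0.25 (edgeR adjusted p = 0.323). All 3 were lower in 3 of 3 HFCF libraries, yet their differences were about 2 standard errors and were lost in the adjustment over all rows. DESeq2 and limma-voom called none of the 18 at either time. Rps3 (Snord15b) had 1794, 1868 and 1706 CPM against 1609, 1148 and 1229 CPM, at -0.43 ± 0.22. In Rps3 the first HFCF library lay close to the chow values. Rpl27a (Snora3) had 49.6, 50.7 and 49.9 CPM against 48.7, 36.5 and 36.2 CPM, at -0.31 ± 0.26, so that its groups were separate by a narrow margin. Rpl13 had 1489, 1516 and 1489 CPM in chow and 1833, 1108 and 1538 CPM in HFCF, a difference of -0.0044 ± 0.23 with chow values inside the HFCF range.

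**Figure D4:**
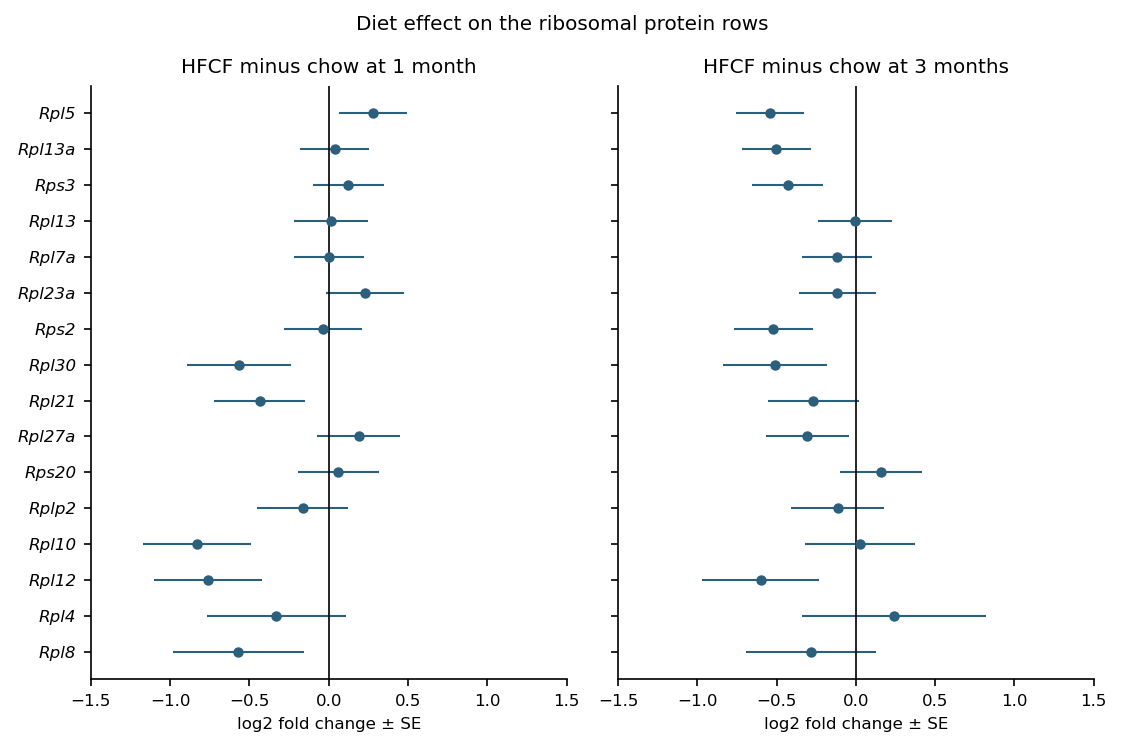
Log2 fold change (HFCF minus chow) with its standard error for 16 ribosomal protein rows at 1 month and 3 months. Values lie on both sides of 0 at 1 month, from -0.83 in Rpl10 to 0.28 in Rpl5, and at 3 months they run from -0.60 in Rpl12 to 0.24 in Rpl4 with 13 below 0; no row passed the test at either time.

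The snoRNAs within a host had different values. In Rpl13a at 3 months, Snord34 was at -0.63 ± 0.22, Snord32a at -0.49 ± 0.22 and Snord33 at -0.32 ± 0.24; Snord35a, which the row leaves out, was at -0.49 ± 0.27. Of the 35 tested snoRNA rows that lie within these genes on either strand, none passed in any of the 6 comparisons. Snora78, within Rps2, lies on the strand opposite to Rps2 and is among the rows left out. The 16 tested snoRNA rows that the hosts leave out had a median of -0.36 at 3 months with 15 negative. At 1 month their median was -0.18 with 13 negative, against 0.01 with 9 negative for the 19 counted snoRNA rows. The 204 tested snoRNA rows outside ribosomal protein rows had a median of -0.09 with 125 negative at 3 months. At 1 month these 204 rows had a median of -0.05 with 120 negative. The differences between snoRNA sets were not tested.

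In Rpl7a, the snoRNAs of a single gene went apart from library to library. SNORD24, which the row leaves out, had 700 to 5466 counts, and the 3 SNORD36 rows together had 3608 to 7908. Their ratio was 0.206, 0.714 and 0.513 in chow and 0.406, 0.134 and 0.389 in HFCF at 1 month. At 3 months it was 0.194, 0.298 and 0.449 in chow and 0.541, 0.256 and 0.939 in HFCF. The groups overlapped at both times, and the highest and the lowest value both came from HFCF livers. SNORD24 differed by 0.82 ± 0.69 on the log2 scale at 3 months (edgeR adjusted p = 0.647).

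**Figure D5:**
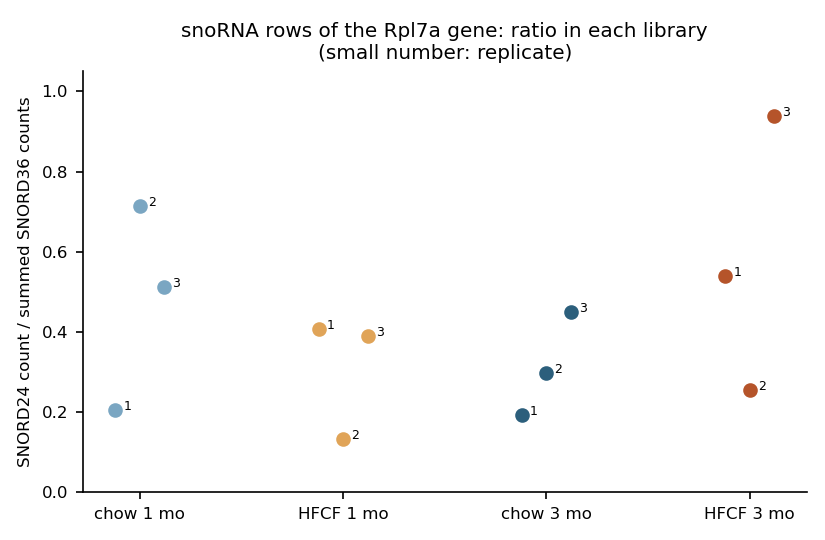
Ratio of the SNORD24 count to the summed counts of 3 SNORD36 rows, all from the Rpl7a gene, in each of 12 libraries by group; small numbers are replicates. The ratio runs from 0.134 (HFCF replicate 2 at 1 month) to 0.939 (HFCF replicate 3 at 3 months), and the groups overlap.

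No ribosomal protein row passed the test of the difference in diet effect between times. None of 18 was called, against 0.0796% of all rows tested, and 1 had an unadjusted p under 0.05 (7.93% of all rows). That row was Rpl5, whose diet effect was 0.28 at 1 month and -0.54 at 3 months, a difference of -0.82 ± 0.30 (edgeR adjusted p = 0.413). The following rows were Rpl13a at -0.54 ± 0.31, Rpl10 at 0.86 ± 0.49 and Rps3 at -0.55 ± 0.32. Under library totals without TMM the differences were -0.083 in Rpl13a, -0.079 in Rps3 and -0.38 in Rpl5. Rpl10 was at 0.34 without chow replicate 2 at 1 month. Averaged over both times, which uses the same libraries, none of 18 passed against 4.42% of all rows, and 3 had an unadjusted p under 0.05 (16% of all rows). The average was -0.68 ± 0.25 for Rpl12 (edgeR adjusted p = 0.129) and -0.54 ± 0.23 for Rpl30 (edgeR adjusted p = 0.237). Rpl30 passed at -0.71 ± 0.20 (edgeR adjusted p = 0.0380) without chow replicate 1 at 1 month. Without chow replicate 2 at 1 month Rpl30 was at -0.23 ± 0.20 (edgeR adjusted p = 0.662) and Rpl12 at -0.43 ± 0.25 (edgeR adjusted p = 0.438).

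Between 1 month and 3 months no row passed on either diet. In chow none of 18 passed, against 0.319% of all rows, none had an unadjusted p under 0.05 (10.6% of all rows), and 5 were negative (53.8% of all rows) with a median of 0.15. This direction did not hold under every setting: 15 were negative under library totals (median -0.25, all rows -0.40), 18 under the scaling of the miRNA rows (median -0.30, all rows -0.44) and 10 without chow replicate 1 at 1 month (median -0.07). DESeq2 and limma-voom also called none on either diet, nor in the difference between times or the average. Rpl4 had the smallest p, at -0.97 ± 0.51 with the high value of chow replicate 1 at 1 month in it, followed by Rpl5 at 0.39 ± 0.21. Rpl5 was the 1 row higher at 3 months in chow with no overlap, as were 8.12% of all rows. In HFCF none of 18 passed, against 2.71% of all rows, and 1 had an unadjusted p under 0.05 (12.8% of all rows). That row was Rpl5, which was lower at 3 months in 3 of 3 libraries, at -0.44 ± 0.21 (edgeR adjusted p = 0.385). Rpl13a was also lower without overlap at -0.33 ± 0.22 (9.08% of all rows were lower in that way), Rps20 was higher without overlap at 0.34 ± 0.26 (8.4% of all rows), and Rpl10 was at 0.64 ± 0.35 with overlap. The comparisons in chow and in HFCF share no library with each other, but each shares libraries with the comparisons of diets.

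Other parts of the translation machinery also had few reads or overlapped small RNA rows. For these lists only the overlap was examined, not whether counts were shared. The first list held 26 translation factors and other messenger RNAs with the 5′ tract that ribosomal protein messages carry. Of these, 11 had a row and 9 were tested. Of the 9, 6 overlapped small RNA rows, and none passed in the 6 comparisons. Eef1a1, the elongation factor that brings transfer RNA to the ribosome, had 8.06, 4.85 and 5.36 CPM in chow and 2.51, 5.07 and 3.18 CPM in HFCF at 1 month. The groups overlapped, and the log2 fold change was -0.79 ± 0.32 (edgeR adjusted p = 0.390). Of 22 listed ribosome biogenesis genes, 4 had a row and 2 were tested, Ncl and Nop56. Both overlapped small RNA rows and neither was called. Of 12 listed non-coding snoRNA hosts such as Gas5 and Snhg1, 6 were tested, 5 of them overlapping small RNA rows, and none passed. The 2 mitochondrial ribosomal protein rows were too low to test.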

How the data were processed

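Small RNA was sequenced from 12 livers. Per the file headers, the authors deposited for each gene and library a read count (whole numbers) and an FPKM value. Coordinates are on mm10, which the submitters' processing notes name; aligner, counter and strand setting: not given in the sources used here. Labels and design text disagree on the library kit (small RNA, or stranded total RNA). Identifiers were matched to GENCODE M21 (3617 of 3717). A ribosomal protein row was taken to span an snoRNA row where their intervals overlap, on either strand. For each host, the combination of snoRNA rows that best matched its count without exceeding it was sought. Where it reached 80% of that count, these snoRNA rows were called counted in the host and the reads were called shared. Rpl4 spans 5 snoRNA rows, none of which was called counted, so it is described as sharing no reads.

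Tests used edgeR 4.0.16 (R 4.3.3) on the deposited counts: filterByExpr by group, TMM, glmQLFit (robust) with 1 mean per group over 12 libraries of 2539388 to 5255906 counts, and Benjamini-Hochberg adjusted p under 0.05. Standard errors were derived from the fold change and the F value (size of log2 change over root F). The authors' FPKM entered no test. DESeq2 1.42.0 and limma 3.58.1 (voom) were alternatives, with other scalings, filters, row sets, subtraction of snoRNA counts, a replicate block and each library left out. The test was checked on simulated counts. Named rows were, per comparison, up to 12 passing changes in each direction or the 6 smallest p-values, plus Rpl13a, Rplp2 and the rows with no shared reads; Rpl13, Rpl7a and host snoRNAs were added for their counts, and Eef1a1 after its values were seen. Members and lists were chosen with earlier results of these data known. Some rows are counted in the totals but not reported by name here. P-values measure the spread between these libraries.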

Additional observations from a re-analysis of the deposited data

How the results depend on the processing

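The call of 0 ribosomal protein rows was kept in all 6 comparisons under library totals, DESeq2 size factors in edgeR, both other filters, DESeq2, limma-voom, snoRNA counts subtracted (4 rows tested) and protein-coding rows that overlap no small RNA row (2 tested). With library size and TMM factors of the miRNA rows, 1 row passed at 3 months (Rpl5, -0.78) and 1 in the average over both times (Rpl12, -0.997). Leaving out 1 library gave 0 to 1 rows at 1 month and 0 to 1 in the average, each time 1 without chow replicate 1 at 1 month, and 0 in the other comparisons. The summed share of 1.11% of the table fell to 0.0266% with snoRNA counts subtracted, a difference that the subtraction itself makes. Most of the 0.0266% is Rpl23a, from which nothing was subtracted and whose reads cannot be separated from those of Snord42b. Without Rpl23a the remainder was 0.0015% of the table. The 2 ribosomal protein rows that overlap no small RNA row took 0.0339% of the counts of all such protein-coding rows. Replicate numbers did not pair the libraries (correlations of -0.189 to 0.210 between same-numbered libraries, 1 of 18 over 0.1), and with a replicate block 0 rows passed in each comparison. A fit of only the libraries compared gave no separate value for the difference between times or the average. Of 921 values of single rows under alternatives, 897 kept direction and side of the threshold, 4 passed and 20 changed sign, none of these called; the cause was not tested. At 1 month Rpl5 was at -0.077 under library totals and -0.090 under miRNA scaling, and Rpl13a at -0.32 and -0.34. Leaving out 1 library at a time gave, at 1 month, -0.10 to 0.17 for Rpl13a (-0.00086 without HFCF replicate 2), -0.90 to 0.056 for Rpl30 and -0.36 to 0.024 for Rplp2 (both highest without chow replicate 2), -0.65 to 0.077 for Rpl21 (highest without chow replicate 3) and -0.93 to 0.40 for Rpl4 (highest without chow replicate 1). At 3 months Rpl4 ran from -0.24 (without HFCF replicate 3) to 0.62 and was at -0.0022 under miRNA scaling. For time in chow, library totals gave Rps3 -0.11, Rpl27a -0.0069 and Rpl13a -0.15, and miRNA scaling gave Rpl5 -0.022, Rpl23a -0.040, Rps3 -0.15, Rpl27a -0.060 and Rpl13a -0.20. Under miRNA scaling the median of all rows moved to -0.37 at 1 month and -0.20 at 3 months.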
